A study of Mus musculus with 5 samples.

Results

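Foxa1 sites in adult mouse liver were grouped by their spacing along the chromosomes, and the sites that lie in chains are described here. The 9128 sites were chosen by the pooled reads of 5 libraries, as runs of 200 bp bins with 9 to 60 distinct reads and reads in 3 or more libraries. A site was called clustered when it lay in a chain of 3 or more sites whose neighbouring edges were 1 to 25 kb apart. By this rule 910 of the 9128 sites (9.97%) were clustered, in 259 chains, and 8218 were not. Number, spacing and pooled read count were thus fixed by the choice, and they are given as descriptions without a test. All 5 libraries are chromatin immunoprecipitations (ChIP) with an antiserum specific to Foxa1, from snap-frozen livers of male CD1 mice that were wild-type and 2 to 3 months old. CD1 is an outbred stock, so individual mice can differ in genotype. There was 1 condition, and the Foxa2 and input libraries were not analysed here. The sites are thus places with many reads of the Foxa1 ChIP, and Foxa1 binding at each of them was not tested.

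Foxa1 is a forkhead, or winged-helix, transcription factor. It is known as a pioneer factor, because it can bind its sites in closed chromatin and open them for other factors, and in the liver it acts beside its paralog Foxa2. Liver enhancers often hold binding sites for several hepatocyte factors, and 1 gene can have several enhancers at a distance from each other. A bound protein also leaves a mark in the reads themselves. Fragments of DNA around it are read from their ends, so plus-strand reads start before the protein and minus-strand reads start after it.

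The libraries held 3023778, 4146819, 4316856, 4600497 and 1428894 distinct autosomal reads in replicates 1 to 5, where reads with the same strand and 5′ end in 1 library count once. The mean over the genome was 1.42 distinct reads per bin in all 5 libraries together, so the minimum of 9 reads is 6.33 times that mean. Replicate 5 was deposited with 4.74 copies per distinct read, against 1.07 to 1.73 in the others. The study describes 5 biological replicates of the Foxa1 ChIP. Replicates 3 and 4 carry the same animal label, WT4, in the headers of their files. They held 8.51 and 1.09 times their genome means over a segment of chromosome 2 with 34 of the clustered sites, so results are also given without that segment.

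Most chains were short. Of the 259 chains, 189 had 3 sites, 42 had 4, 15 had 5, and 13 chains had 6 to 11. The 28 chains of 5 or more sites held 175 of the 910 clustered sites. The median chain spanned 21000 bp (quartiles 11200 and 30700 bp) and the longest 99000 bp. Within a chain the median gap was 8000 bp over the 259 chains, from 1100 to 24500 bp. The gaps of 1 to 25 kb lay at the lower end of a broad distribution and formed no separate peak in it. Between all neighbouring sites there were 9109 gaps with a median of 123600 bp, and 1562 of them (17.1%) lay in the linking range. Another 659 gaps were under 1 kb. At the edges of the rule, 69 gaps measured 1000 bp and 96 measured 800 bp, while 5 measured 25000 bp and 10 measured 25200 bp. A gap under 1 kb ended 78 of the 259 chains on at least 1 side, and 1822 further sites were linked only as pairs.

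**Figure D1:**
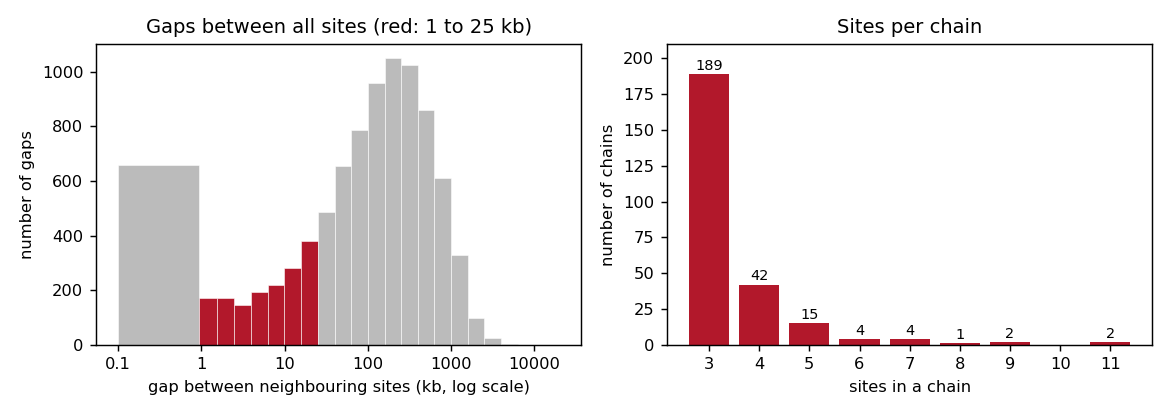
Left, the number of gaps between neighbouring sites against gap length (kb, log scale), with the gaps that link a chain in red. Right, the number of chains against the sites in a chain. The bar for gaps under 1 kb holds 659 gaps over a wider range than the others, the red bars rise to 381 gaps without a trough at 25 kb, and 189 chains have 3 sites.

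The clustered sites were small and of modest read count, as were the others. A width of 1 bin was found in 811 of the 910 clustered sites (89.1%) and in 93.7% of the other sites. The clustered sites held 9 to 190 distinct reads, with a median of 10.5 and quartiles of 9 and 15, and the other sites held 9 to 945 with a median of 10. The lowest count that the rule admits, 9 reads in the highest bin, was the value of 297 clustered sites (32.6%) and of 45.8% of the other sites. Inside the chains lay 205 more runs of bins with 8 reads, just under the minimum, and 14 runs with over 60 reads, beyond the maximum. The strongest site of a chain held a median of 1.82 times the reads of its weakest.

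All 5 libraries had reads in 318 of the clustered sites (34.9%), 4 libraries in 432 (47.5%), and 3 in 160 (17.6%), where the other sites had 30.4%, 47.0% and 22.6%. Replicate 4 gave 30.8% of the reads in clustered sites and 26.3% of the distinct reads of the genome. Replicate 5, the library with the fewest distinct reads, gave 18.1% of the reads in clustered sites and 8.16% of those of the genome. The shares in the other sites were 31.0% and 16.4%, so the clustered sites drew on these libraries much as the other sites did. At least 75% of the reads came from 1 library at 15 clustered sites (1.65%) and at 93 other sites (1.13%). At the clustered ones this was replicate 4 in 9, replicate 3 in 5 and replicate 1 in 1. This limit was set after the values were seen.

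The surroundings of the sites were measured by their flanks, which were the bins 1 to 5 kb from the edges of a site, without the bins of any site. Bins with over 60 reads are not part of a site, so they stayed in the flanks unless they lay beside one. The flanks of clustered sites held a median of 1.28 times the genome mean, and those of other sites 1.16 times. Flanks of over 2 times the genome mean, called dense here, were found at 124 of the 910 clustered sites (13.6%) and at 5.09% of the other sites, beside 5.94% of all 9128. All sites had plain flanks, of up to 2 times the mean, in 209 chains with 704 sites. In 16 chains with 59 sites all flanks were dense, and 34 chains with 147 sites held both. The chains of the plain kind were looser, with a median gap of 9400 bp, where the dense ones had 2150 bp and the mixed ones 4750 bp.

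To measure the clustered sites with reads that had not chosen them, sites and chains were found in 4 libraries and the reads of the fifth were counted. Replicates 1 to 5 in turn measured 464, 313, 403, 235 and 375 clustered sites and 5005, 3549, 4291, 2456 and 4779 others. The density in clustered sites over that of their flanks, both summed over sites, was 3.48, 3.81, 2.76, 3.26 and 3.97 fold in the held-out replicates 1 to 5. Other sites reached 4.96, 7.13, 5.14, 8.54 and 8.41 fold. Both kinds of site lay above their flanks in every library, and the clustered sites less so in each of the 5. On the log2 scale the enrichment of clustered sites was 1.78 ± 0.21 (SD, n = 5 libraries), with an exact two-sided sign-flip permutation p of 0.062, which is the smallest that 5 libraries allow. The difference from other sites was -0.96 ± 0.32 (exact sign-flip p = 0.062). No test here can pass 0.05, and over the 6 tests of this design the Benjamini-Hochberg value of these exact p-values was 0.0938. The p-values take the libraries as independent, which replicates 3 and 4 may not be. They also take the 5 held-out values as separate, though each library helped to choose the sites that the others measured. Among sites of up to 15 reads in the libraries that chose them, the difference was -0.49 ± 0.49, below 0 in 4 of 5 libraries (exact sign-flip p = 0.125). That limit was set after the first values were seen. In the pooled reads, the median was 5.90 times the flanks over the 910 clustered sites and 6.20 times over the other sites. Pooled reads chose the sites, so these medians are a description.

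The flanks, by which this ratio divides, also differed. In the held-out libraries the flanks of clustered sites held 1.56, 2.00, 2.02, 2.05 and 2.63 times the genome mean, and those of other sites 1.31, 1.43, 1.33, 1.50 and 1.61 times. The clustered sites had the denser flanks in all 5 libraries, by 0.50 ± 0.17 on the log2 scale (SD, n = 5, exact sign-flip p = 0.062, adjusted 0.0938). Without 1 library the difference was 0.998 to 1.38. With all copies counted it was -0.0778, below 0 in 3 of 5 libraries (exact sign-flip p = 0.25). In that setting 91.8% of sites were clustered, so the groups compared were not the same. The minimum of 9 reads was not scaled to the surroundings, so sites pass it more readily where reads are dense. Denser flanks at clustered sites were thus partly built into the rule, which the held-out test cannot tell apart. Dense flanks were more frequent in these held-out sets than in the pool of 5, at a mean of 145.4 of 358 clustered sites and 258.4 of 4016 other sites. The mean share over the libraries was 43.4 ± 15.8% of clustered sites (SD, n = 5), 6.72 ± 2.21% of other sites and 9.77% of all. When sites with plain flanks were compared with each other, the clustered sites were 2.57 ± 0.55 above their flanks on the log2 scale and the other sites 2.69 ± 0.61. The difference was then -0.11 ± 0.17, below 0 in 4 of 5 libraries (exact sign-flip p = 0.188). It was -0.0443 ± 0.25, with 2 of 5 libraries below 0, when sites with dense flanks were left out before chaining (exact sign-flip p = 0.75). Clustered sites with dense flanks reached 0.98 ± 0.23 and other sites with dense flanks 1.24 ± 0.54, a difference of -0.26 ± 0.39 that was below 0 in 3 of 5 libraries (exact sign-flip p = 0.25). Within this class the order of the flanks was turned. They held 3.50 ± 1.14 times the genome mean at clustered sites and 9.03 ± 1.37 times at other sites, a log2 difference of -1.41 ± 0.27 that was below 0 in 5 of 5 libraries (exact sign-flip p = 0.062). For other sites, whose reads were summed, the fold of both classes together was above that of each class in replicates 1 to 3. It was 4.96, 7.13 and 5.14 fold, where plain flanks gave 4.58, 6.36 and 3.93 and dense flanks 2.15, 3.17 and 2.91. The enrichment difference over both classes is thus not a mean of the differences within them. The split by flanks was added after the first values were seen.

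**Figure D2:**
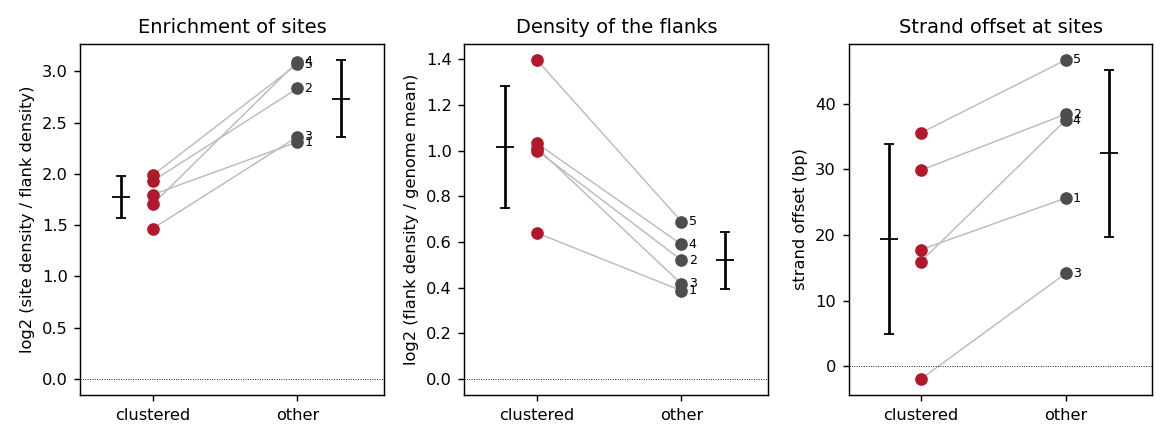
Held-out values of clustered (red) and other (grey) sites in each library, with lines that join the 2 values of a library, numbers for the replicates, and mean ± SD (n = 5) beside the points. From left to right the axes are the log2 enrichment over the flanks, the log2 flank density over the genome mean and the strand offset in bp. In each of the 5 libraries the clustered sites, of both flank classes together, have the lower enrichment, the denser flanks and the smaller offset.

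Counted site by site, the order differed. The held-out library was above the flanks at 64.4%, 75.1%, 62.8%, 69.4% and 51.2% of the clustered sites in replicates 1 to 5, and at 55.3%, 72.3%, 53.5%, 78.4% and 48.4% of all sites found without that replicate. The clustered sites thus had the higher share than the other sites in 4 libraries and the lower share in replicate 4, with a mean difference of 3.26 ± 8.15 percentage points (SD, n = 5, exact sign-flip p = 0.313). This difference was not distinguishable from the spread between libraries. Among sites with plain flanks it was 7.61 ± 2.70 percentage points, above 0 in 5 of 5 libraries (exact sign-flip p = 0.062), a split added after the first values were seen. Within that split the flanks were still denser at clustered sites, by 0.11 ± 0.06 on the log2 scale and in 5 of 5 libraries (exact sign-flip p = 0.062). A held-out library had no read at all in 19.5 to 46.1% of the clustered sites and in 18.7 to 50.2% of all sites, so single sites were not resolved at this depth. In replicate 1, 64.4% of clustered sites lay above their flanks and 33.6% held no read, and in replicate 4 69.4% and 23.0%. The share above the flanks thus largely counts sites with a read. It does not measure the strength of enrichment, and it was not corrected for site width or flank density.

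The strand offset, which is the mean start of minus-strand reads less that of plus-strand reads within 200 bp of the site centres, was 17.8, 29.9, -1.94, 16.0 and 35.6 bp for clustered sites in the held-out replicates 1 to 5. It was above 0 in 4 of 5 libraries and about 0 in replicate 3, with a mean of 19.5 ± 14.5 bp (SD, n = 5, exact sign-flip p = 0.125, adjusted 0.15). Within 100 bp of the centres it was 18.0 ± 5.35 bp and above 0 in 5 of 5 libraries (exact sign-flip p = 0.062). Other sites had offsets of 25.6, 38.4, 14.1, 37.5 and 46.7 bp. The clustered sites had the smaller offset in all 5 libraries, by 7.86 to 21.6 bp, with a mean difference of -13.0 ± 5.76 bp (exact sign-flip p = 0.062, adjusted 0.0938). This difference depended on the rule, and with gaps of up to 50 kb it was -0.46 ± 7.95 bp, below 0 in 2 of 5 libraries. Within 100 bp of the centres it was -5.17 ± 4.18 bp, below 0 in 4 of 5 (exact sign-flip p = 0.125). With plain flanks only, clustered sites had 28.4 ± 23.5 bp and other sites 41.4 ± 14.1 bp, and the clustered sites had the smaller offset in 4 of 5 libraries (exact sign-flip p = 0.125). With dense flanks the order was turned, at 4.90 ± 9.70 bp for clustered sites and -7.20 ± 3.79 bp for other sites. The difference of 12.1 ± 12.3 bp was above 0 in 4 of 5 libraries (exact sign-flip p = 0.125). The offset of the clustered sites with plain flanks ranged from -8.98 bp in replicate 3 to 54.3 bp in replicate 5. With plain flanks the offset of clustered sites was above 0 in 4 of 5 libraries (exact sign-flip p = 0.125), and with dense flanks in 3 (p = 0.375).

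**Figure D3:**
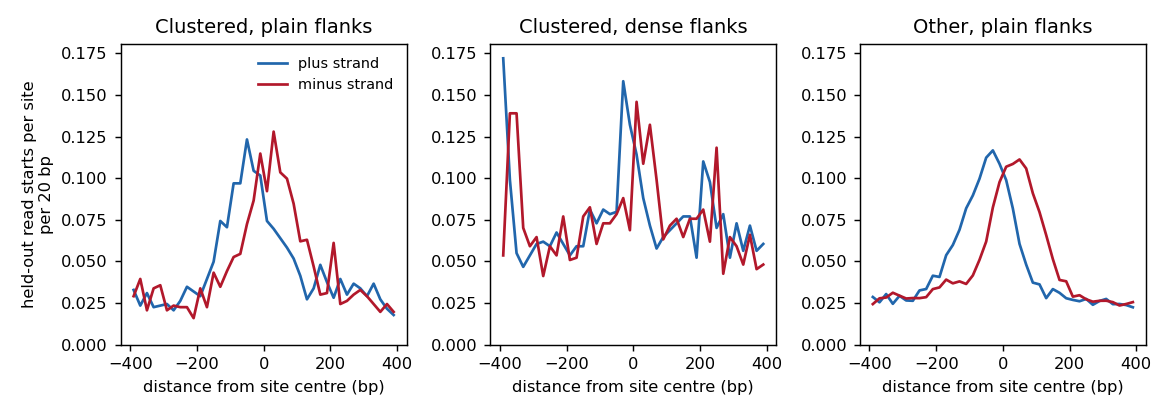
Held-out read starts per site and 20 bp step against distance from the site centre (bp), for plus-strand (blue) and minus-strand (red) reads. Reads and sites were each summed over the 5 held-out libraries, so the values are means per site and library. In clustered sites with plain flanks the plus-strand reads peak 50 bp before the centre, at 0.123 per site, and the minus-strand reads 30 bp after it, at 0.128. Clustered sites with dense flanks hold more reads than those with plain flanks in all 60 steps over 100 bp from the centre but fewer in 8 of the 20 nearer steps, and the other sites with plain flanks show a pair of peaks shifted in the same order.

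Copies of reads were not used in the rule. The held-out libraries held 1.73, 1.82, 1.53, 2.06 and 5.01 copies per distinct read in clustered sites, and 1.50, 1.32, 2.00, 1.88 and 4.96 in other sites. The difference was 0.10 ± 0.36 copies (SD, n = 5), positive in 4 of 5 libraries and negative in replicate 3 (exact sign-flip p = 0.563). It was not stable, at 0.99, 0.85, 1.04, 1.05 and 0.32 copies when replicates 1 to 5 in turn were left out of the whole procedure. Among sites with plain flanks only it was -0.36 ± 0.55 copies, below 0 in 5 of 5 libraries (exact sign-flip p = 0.062). The reads between the sites of a chain were also compared with those beyond its ends. The bins between clustered sites held 1.73 ± 0.34 times the genome mean (SD, n = 5), and the 25 kb on each side of the chains held 1.61 ± 0.20 times. The log2 ratio of the 2 was 0.09 ± 0.12, above 0 in 3 of 5 libraries (exact sign-flip p = 0.25), so a difference was not resolved. This comparison was added after the first values were seen.

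The distance to the nearest other site was then used to order all sites, as a description added after the first values were seen. Sites within 1 kb of another had flanks of 3.96 ± 0.60 times the genome mean (SD, n = 5 libraries) and an offset of 1.43 ± 4.68 bp. At 1 to 5 kb, the closest spacing that a chain allows, the flanks held 2.02 ± 0.40 times the mean and the offset was 30.7 ± 14.2 bp. At 5 to 10 kb the flanks held 1.26 ± 0.13 times the mean with an offset of 49.1 ± 5.42 bp, and at 10 to 25 kb 1.25 ± 0.14 times with 50.5 ± 17.7 bp. Sites 25 to 100 kb from the next, too far apart to link a chain, had 1.20 ± 0.10 times the mean and 53.7 ± 11.5 bp. Sites over 100 kb from the next had 1.19 ± 0.06 times the mean and 37.8 ± 16.8 bp. The mean flank density at the wider chain spacings was thus close to that of isolated sites, and it was higher below 5 kb. The fixed minimum of 9 reads bears on this order too, since sites pass it more readily where reads are dense.

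Against sites over 100 kb from the next, the log2 enrichment differed by -0.60 ± 0.52 at 1 to 5 kb, where all 5 libraries were lower. It differed by 0.06 ± 0.26 at 5 to 10 kb and by 0.09 ± 0.23 at 10 to 25 kb, each above 0 in 4 of 5 libraries. The offset differed by -7.05 ± 10.1, 11.3 ± 14.99 and 12.7 ± 10.1 bp in the same order. The lowest exact sign-flip p of these 6 comparisons was 0.062, and the lowest Benjamini-Hochberg value was 0.375. A difference between sites 5 to 25 kb from a neighbour and isolated sites was not resolved, and the single libraries ranged from -0.36 to 0.38 on the log2 scale. The mean log2 enrichment was 1.82 at 1 to 5 kb and 2.48 at 5 to 10 kb. At 10 to 25 kb it was 2.51 and at 25 to 100 kb 2.52. The linking spacings over 5 kb and the next wider one thus had close means, while the closest linking spacing had a lower one.

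**Figure D4:**
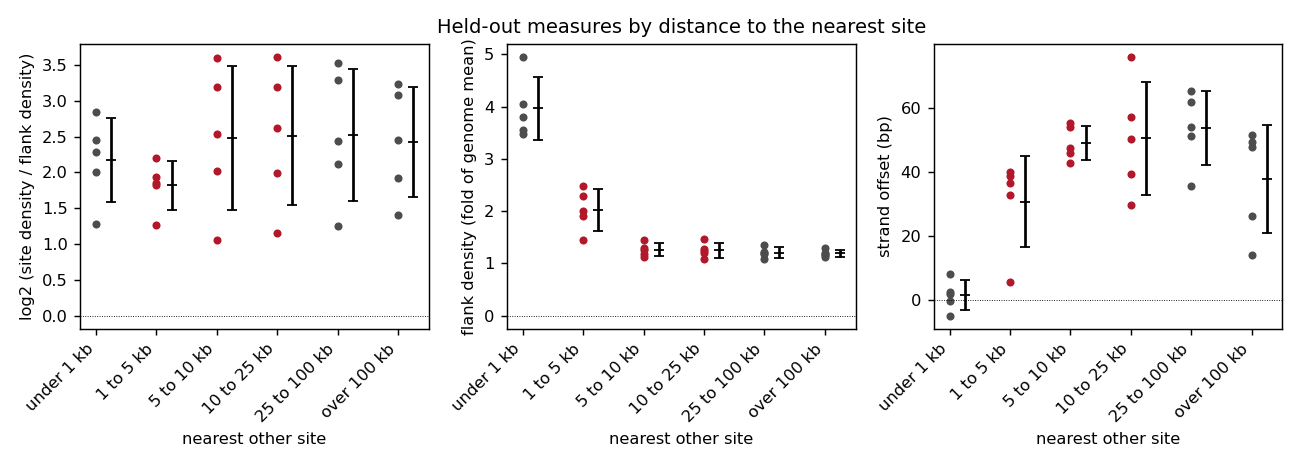
Held-out log2 enrichment over the flanks, flank density (fold of the genome mean) and strand offset (bp) against the distance to the nearest other site. Each point is 1 library, spacings that can link a chain are red, and bars give mean ± SD (n = 5). Flank density falls from 3.96 times the mean under 1 kb to 1.26 at 5 to 10 kb, while the offset rises from 1.43 to 49.1 bp.

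The clustered sites were spread over all 19 autosomes, and not evenly. Chromosome 13 had the highest share, with 86 of its 468 sites in chains (18.4%), followed by chromosome 5 with 102 of 651 (15.7%). The lowest share was on chromosome 6, with 31 of 518 (5.98%). Some chains lay close together. When chains within 200 kb of each other were joined, the 259 chains made 214 regions, and 21 regions of 2 or more chains held 266 of the 910 clustered sites. Regions of 34, 34 and 30 clustered sites were the 3 largest, on chromosomes 2, 5 and 13. The first 1 Mb with reads of the chromosomes held 37 clustered sites (4.07%) in 10 chains, and 2.37% of the other sites.

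The chains with the most sites were both on chromosome 5, at chr5:14979601-15058600 and chr5:14910401-14979200 in mm8, and each had 11. The first held 26, 48, 18, 48 and 5 distinct reads in replicates 1 to 5, and the second 20, 30, 21, 45 and 10. A gap under 1 kb parts the chains, so that 22 sites follow one another here. Their flanks were sparse, with a median of 0.87 and 0.82 times the genome mean, and no site had dense flanks. All 5 libraries contributed to both.

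On chromosome 17 a chain of 9 sites spanned chr17:30338401-30437400, the longest of all, with 11, 33, 14, 47 and 21 reads in replicates 1 to 5. The reads within 50 kb of it, sites left out, were 1.32 times the genome mean in replicate 1 and 2.05 to 2.37 times in the other 4. Another chain of 9 sites, at chr1:85134601-85153000, held 25, 20, 37, 21 and 9 reads over 18400 bp, and the reads around it were 1.65 and 1.83 times the mean in replicates 1 and 3 and 0.825 to 0.998 times in the others. The 8 sites at chr13:12841401-12868600 held 14, 29, 30, 28 and 9 reads, and 7 of them had dense flanks. Of the 7 sites at chr1:173368401-173390800, with 27, 40, 36, 49 and 6 reads, all had dense flanks. These chains lay in raised stretches, some raised in part of the libraries.

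The other 3 chains of 7 sites had mostly plain flanks. Their positions were chr4:146234001-146263600, chr2:109733401-109805800 and chr4:144675601-144716400, with 16, 26, 23, 29 and 6 reads, 15, 14, 5, 29 and 22 reads, and 13, 19, 16, 32 and 3 reads in replicates 1 to 5. At most 1 site of each had dense flanks. The chain at chr2:109733401-109805800 had the widest pooled strand offset of the 10, at 63.7 bp, with gaps of 6800 to 19400 bp. Pooled offsets come from the reads that chose the sites and are a description. Those reads were shifted 50 bp toward the fragment centre before they were counted. A positive pooled offset is thus partly built into the choice and cannot show binding.

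The tenth chain, of 6 sites at chr2:77711401-77722800, held 13, 8, 62, 10 and 35 reads, and its pooled offset was -2.42 bp. It belongs to a segment of 160 kb, chr2:77670001-77830000, that was filled in 2 libraries. Over the segment the libraries held 252, 268, 2386, 327 and 848 distinct reads, which is 1.28, 0.99, 8.51, 1.09 and 9.13 times their genome means. Replicates 3 and 5 stood far above replicates 1, 2 and 4, and no value lay between. Over the 100 kb on either side all 5 libraries held 1.03 to 1.18 times their means, so the segment has sharp ends. The segment held 99 sites, of which 34 in 9 chains were clustered, and replicates 3 and 5 gave 255 and 116 of the reads in those 34 while the other libraries gave 38, 33 and 48. Replicates 3 and 4, which share the label WT4, thus differed 8.51 to 1.09 here. These 9 chains were 9 of the 12 whose surroundings differed 3 times or more between libraries, where the median chain had 1.49 times. The segment was singled out after its values were seen, and the cause was not tested.

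**Figure D5:**
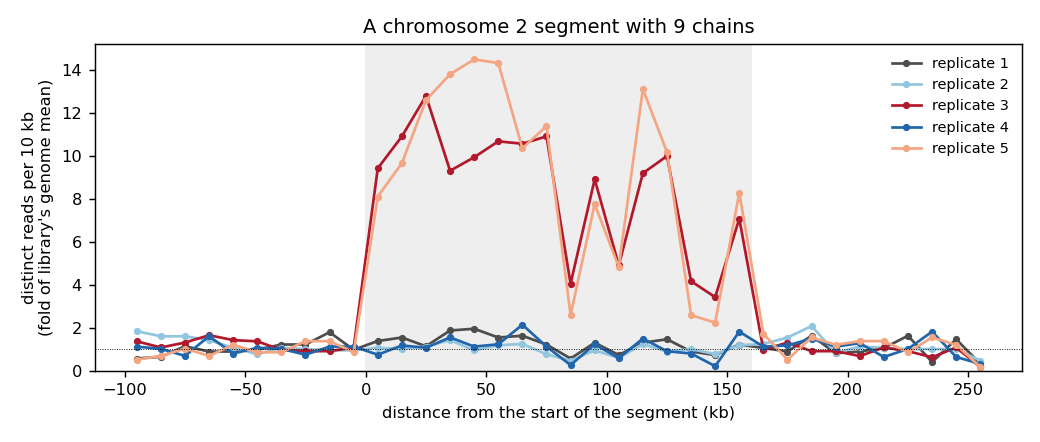
Distinct reads per 10 kb window, as fold of the genome mean of each library, against the distance from the start of the segment (kb), with the segment shaded. Replicates 3 and 5 hold 2.24 to 14.5 times their means in every window of the segment, replicates 1, 2 and 4 hold 0.21 to 2.14 times, and outside it the windows of all 5 hold 0.17 to 2.08 times.

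Without this segment, chaining left 876 clustered sites in 250 chains. The held-out enrichment of clustered less other sites was then -0.83 ± 0.30 on the log2 scale (SD, n = 5), the flank density difference 0.45 ± 0.17 and the offset difference -11.1 ± 7.30 bp, each with the same sign in 5 of 5 libraries (exact sign-flip p = 0.062).

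The clustered sites with the most reads were unlike the typical member, and the surroundings of some were dense or near the start of a chromosome. The highest were a pair of wide sites in 1 chain, at chr7:37887401-37889600 and chr7:37892201-37894000, with 190 and 181 reads. The first held 45, 44, 50, 46 and 5 reads in replicates 1 to 5 and the second 32, 54, 44, 45 and 6. The site at chr11:3026801-3027800, near the start of the assembled chromosome, held 15, 37, 48, 25 and 5 reads. Within 200 bp of the centre of this wide site, minus-strand reads started on average before plus-strand reads, with a pooled offset of -69.6 bp. The pooled reads chose the site, so the offset is a description. At chr1:173376801-173378200 there were 11, 23, 16, 36 and 2 reads, and the flanks held 2.60 times the genome mean. The site at chr9:3018401-3018800 held 17, 19, 21, 20 and 7 reads in flanks of 27.8 times the genome mean, so it was only 1.06 times its flanks.

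The study lists 33 distinct mm8 intervals, bound by Foxa1 as well as Foxa2, for genes linked to diabetes. Of these, 23 overlapped a site and 3 of these overlapped clustered sites, at 2 genes, where 9.97% of all sites are clustered. The Foxa1 reads behind the list came from these same libraries, so the overlap is not independent evidence. Where genes are named, the name is that of the list. No gene was assigned to any other chain, since positions of genes in mm8 were not used here.

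At Fto, which encodes an RNA demethylase linked to obesity, a chain of 3 sites spanned chr8:94269601-94293400. The site at chr8:94269601-94269800, in a listed interval, held 5, 3, 0, 10 and 2 reads in replicates 1 to 5, 14.0 times the density of its flanks. The next, at chr8:94271601-94271800, is not in a listed interval and held 2, 0, 0, 4 and 4 reads, 6.38 times its flanks. The third, at chr8:94293201-94293400, lies in another listed interval and held 4, 1, 3, 4 and 4 reads, 6.34 times its flanks. Replicate 3 gave 3 of the 46 reads of the chain, all at the third site. The flanks were plain at all 3 sites, at 1.01, 1.10 and 1.77 times the genome mean. The pooled strand offset of the chain was 59.8 bp, a description that the shift of the reads partly builds in. In a RefSeq table of another build, GRCm38.p6, Fto lies between the genes Rpgrip1l and Irx3. The list has 2 more intervals at Fto, of which chr8:94385450-94385670 overlaps a site that is not clustered and chr8:94419900-94420107 overlaps none.

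At Arap1, which encodes a GTPase-activating protein, a chain of 3 sites spanned chr7:101184801-101210600. The middle site, at chr7:101197201-101197400, overlaps the listed interval and held 3, 6, 0, 9 and 2 reads in replicates 1 to 5, 12.7 times its flanks. The site before it, at chr7:101184801-101185000, held 0, 4, 0, 4 and 2 reads, and the one after it, at chr7:101210401-101210600, held 3, 0, 1, 3 and 3 reads. Their densities were 5.56 and 4.55 times the flanks, and both sites are near the minimum of 9 reads. Replicate 3 gave 1 of the 40 reads of the chain. The flanks were plain at 1.11 to 1.55 times the genome mean, and the pooled offset, likewise a description, was 25.5 bp. In the same RefSeq table Arap1 lies between Stard10 and Pde2a. Both chains at listed genes were of the loose kind with plain flanks, with gaps of 1800 and 21400 bp at Fto and 12200 and 13000 bp at Arap1.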

How the data were processed

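Per the labels and the methods of the study, the authors aligned 36 nt reads with ELAND to mm8 and kept reads with a unique best position. The deposited files list read positions and strands, with a score of 0 on every line, no signal and no sequence, and copies are kept. Each deposited file holds 1 library. The version of ELAND is not given in the sources used here.

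Reads were collapsed to 1 per library, strand and 5′ end, shifted 50 bp toward the fragment centre and counted in 200 bp bins of the 19 autosomes with Python 3.11.15, NumPy 2.4.6, pandas 2.3.3 and SciPy 1.17.1. Depth was 1428894 to 4600497 distinct reads per library, or 1.42 per bin over the 5, which limits precision to counting error or worse. Sites were found in 4 libraries and measured in the fifth, and libraries were compared by exact sign-flip permutation tests. Functions were tested on simulated reads. Named were the 10 chains with most sites, chains at the listed diabetes genes, the 5 clustered sites with most reads, and values at the thresholds of the rule. Members, lists and tests were chosen with earlier results of these data known. The study called its sites against input with GLITR, which was not run here. Alternatives changed copies, shift, bins, read and library minimums, gaps, chain length, flanks, offset window and libraries. No mm8 genome was used, so sequences and motifs were not analysed here.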

Additional observations from a re-analysis of the deposited data

Results flagged for a closer look

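Of 34 sets of 5 library values tested for a library far from the rest, 3 had one, and chance gives about 1 in 20. All 3 concern replicate 5 and the copies of reads, a property of that library as a whole. Replicate 5 was deposited with 4.74 copies per distinct read, where the next highest library had 1.73. When held out, it had 5.01 copies per distinct read in clustered sites, where the next highest library had 2.06. In other sites it had 4.96, where the next highest had 2.00. No library was far from the rest in the enrichment, flank density or strand offset of the clustered sites.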

How the results depend on the processing

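The libraries form 1 group, so no replicate numbers pair samples across groups, and clustered and other sites were compared within each library. The held-out enrichment of clustered sites stayed above 0 under all 18 alternatives (0.64 to 2.59 on the log2 scale), and clustered less other sites had a mean below 0 under all 20 (-1.68 to -0.04), with every library below 0 in 14 of them. The value nearest to 0 came from sites in dense flanks left out before chaining, where 2 of 5 libraries were below 0. With gaps under 1 kb joined it was -0.31 ± 1.12, also with 2 of 5 below 0 (exact sign-flip p = 0.75), and with all copies counted -0.13 with 4 of 5. With no maximum of reads per bin the flank difference was 0.69 and the enrichment difference -1.61. Without 1 library this difference was -1.79 to -1.40, the flank difference 0.998 to 1.38, the offset of clustered sites 5.36 to 20.1 bp and the offset difference -22.0 to -6.46 bp. Sites were then found in 3 libraries, all of which had to hold reads, with the same minimum of 9 reads, and the cause of the shift was not tested. The number of clustered sites is a product of the rule. It was 241149 in 30508 chains (91.8% of sites) with all reads as deposited counted, 556 in 161 chains (8.52%) with a shift of 100 bp, 3370 in 947 (16.5%) with a minimum of 8 reads, and 240 in 62 (8.94%) with 12. It was 450 in 132 chains (4.93%) with gaps of up to 10 kb, 1782 in 488 (19.5%) with up to 50 kb, 2732 in 1170 (29.9%) with chains of 2 or more sites, and 343 in 70 (3.76%) with 4 or more. With gaps under 1 kb joined, 1685 sites (18.5%) were clustered. The share was 9.03% with reads in 4 or more libraries and 8.89% with sites in dense flanks left out before chaining. Without 1 library the pooled rule gave 235 (without replicate 4) to 464 clustered sites (without replicate 1), in 62 to 130 chains, a share of 7.28 to 8.73%, and each library left out lowered the number by over 1.5 times.

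The flank difference reversed with all copies counted (-0.0778) and among sites with dense flanks only (-1.41), an alternative chosen after seeing the data. So did the offset difference (3.67 and 12.1 bp), which also reversed with chains of 2 or more sites (1.01 bp). It was -0.46 bp with gaps of up to 50 kb (2 of 5 libraries below 0) and -2.54 bp with a minimum of 8 reads (3 of 5), and the libraries agreed in sign in 11 of 20 alternatives. The offset of clustered sites itself was 3.84 ± 14.2 bp with a minimum of 12 reads (above 0 in 3 of 5). Without replicate 4 the offset difference was below 0 in 2 of 4 libraries. The cause was not tested. The difference in copies per distinct read was not resolved (exact sign-flip p = 0.563). It reversed with all copies counted (-0.0301), a shift of 100 bp (-0.0126), a minimum of 8 reads (-0.0258) and no maximum (-2.63). It also reversed with gaps of up to 50 kb (-0.0488), gaps under 1 kb joined (-0.30), chains of 4 or more (-0.25) and dense flanks left out before (-0.36) or after chaining (-0.36). With no maximum, and in both settings without dense flanks, it was below 0 in 5 of 5 libraries. The difference in copies rose to 0.83 with a minimum of 12 reads and 0.50 with reads in 4 or more libraries (each above 0 in 5 of 5), and was 0.32 to 1.05 without 1 library. The difference in the share of sites above their flanks, not resolved either, reversed with a shift of 0 bp (-1.46 percentage points) or 100 bp (-1.78), a minimum of 12 reads (-17.4) and reads in 4 or more libraries (-1.36), and ranged from -13.2 to 0.41 without 1 library. All 6 planned held-out results kept their direction without each library in turn. The depth of 1.42 reads per bin limits single sites.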
